A study of Homo sapiens with 6 samples.

Results

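The E proteins and the ID proteins are helix-loop-helix factors that act on each other. They were described here as 7 genes of the 33539 in the deposited table: the E-protein genes TCF3, TCF4 and TCF12 and the ID genes ID1, ID2, ID3 and ID4. The 7 were selected by gene symbol, with the differences between siPOLR1F and NC libraries already known from these data, so those differences are a description of the members and carry no test. RNA came from 8505C cells, a human cell line from an anaplastic thyroid carcinoma, kept in serum-containing medium and taken 24 h after siRNA. Of the 6 libraries, 3 received a negative control siRNA (NC) and 3 an siRNA against POLR1F (siPOLR1F), a subunit of the RNA polymerase that makes ribosomal RNA. No further allele or agent is named in the labels, the siRNA sequences were not used here, and nothing says whether replicates of a group were separate cultures. A p-value below therefore reflects only how far these libraries spread, perhaps for technical reasons. In bulk RNA, fewer cells of a kind and less RNA per cell cannot be told apart.

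E proteins bind DNA at the E box, a short motif with the letters CANNTG, as pairs with themselves or with tissue-restricted partners. ID proteins keep the helix-loop-helix that forms the pair but lack the basic stretch that contacts DNA, so that an E protein bound by an ID protein cannot hold an E box. ID genes are textbook targets of bone morphogenetic protein (BMP) signalling through SMAD factors, and high ID levels are known from stem, progenitor and many tumour cells. TCF3 encodes the splice forms E12 and E47, TCF12 encodes HEB, and TCF4 encodes ITF2 (E2-2). This TCF4 is a different gene from TCF7L2, the WNT factor that carries the same nickname. The table counts whole genes, so E12 and E47 were not separated.

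The libraries held 60576788 to 63038378 counts. POLR1F itself, the check of the labels, had 2446, 2246 and 2095 counts in NC and 575, 395 and 413 in siPOLR1F, with no overlap. Of the keratins of simple epithelium, KRT8, KRT18 and KRT7 were at 117, 162 and 472 FPKM on average in NC (fragments scaled to gene length and library size, a level per length). Thyroid markers were mostly near 0: NKX2-1 was at 45.2 FPKM in NC, but PAX8 at 0.543, FOXE1 at 0.209 and TG at 0.00257, and the epithelial cadherin gene CDH1 was at 0.0285. The summed thyroid markers moved with the groups, from 42.9 to 47.6 FPKM in NC and from 26.6 to 29.8 in siPOLR1F. This sum was almost all NKX2-1, which was at 27.5 FPKM in siPOLR1F and was called lower (log2 fold change -0.71, edgeR adjusted p = 4.35e-04). PAX8 overlapped between the groups (log2 fold change -0.14) and was not called. CDH5, a cadherin of endothelium, was lower too, at 5.65 FPKM in NC and 2.72 in siPOLR1F. The summed epithelial markers also moved, at 684.1 to 786.4 FPKM in NC and 594.0 to 676.4 in siPOLR1F. Of these markers KRT8 was called lower (log2 fold change -0.25, edgeR adjusted p = 0.0197, 0.00140 to 0.110 over the alternatives). KRT7 (-0.22, edgeR adjusted p = 0.0880, 0.00925 to 0.363 over the alternatives) and KRT18 (-0.14, 0.195) overlapped between the groups and were not called. Of 7 markers of leukocytes, endothelium and fibroblasts measured, CDH5 alone averaged 0.5 FPKM or more, and the leukocyte gene PTPRC was at 0.00327 in NC. The part of these shifts in the results below was not tested.

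ID1 and ID3 were by far the most abundant members, and the 7 levels spanned a wide range. In NC, ID1 had 189.8 ± 5.18 FPKM (SD, n = 3), more than 99.0% of the 13564 genes tested, those whose FPKM averaged 0.5 or more. ID3 followed with 101.0 ± 10.5 FPKM (SD, n = 3), above 97.8% of them. Next was TCF3 with 12.1 ± 0.415 FPKM, then TCF12 with 8.05 ± 0.423 and ID2 with 3.57 ± 0.372 (SD, n = 3 each). TCF4 and ID4 were near the lower limit, at 0.700 ± 0.0810 and 0.611 ± 0.126 FPKM (SD, n = 3 each). Each neighbour in this order was separated in all NC libraries, except TCF4 and ID4, whose values overlapped. All 7 passed the limit, and ID4 passed it narrowly, with a mean of 0.535 FPKM over the 6 libraries.

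**Figure D1:**
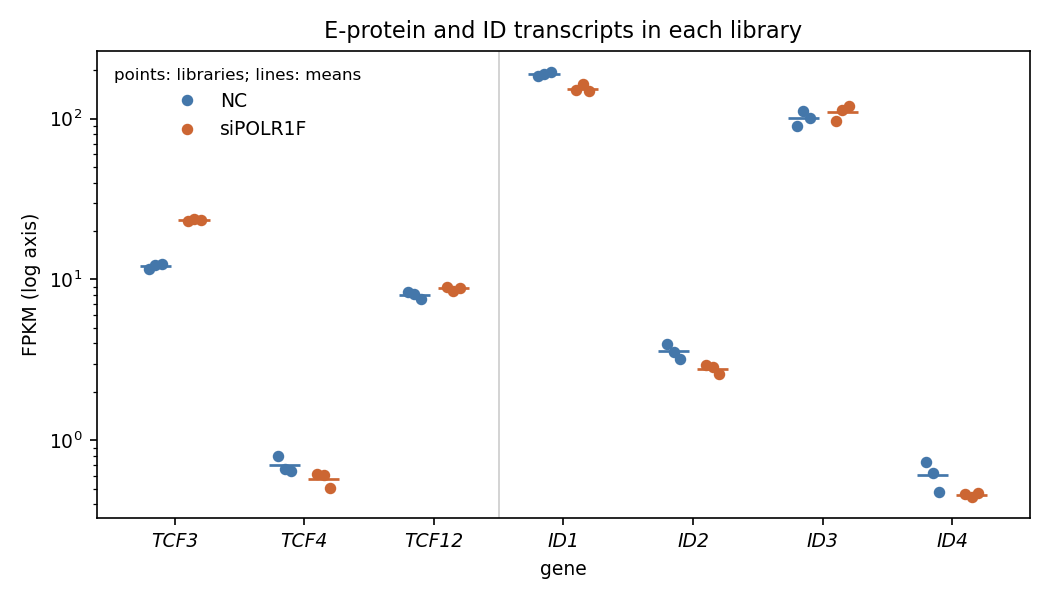
FPKM (log axis) of each member in each library, with NC in blue and siPOLR1F in orange. Points are libraries and short lines are group means. TCF3 stands apart between the groups at 12.1 and 23.4 FPKM on average, while ID3 overlaps.

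How these levels compare depends on the length each gene is divided by. Counts, FPKM and library totals together imply a length of 32.8 kb for TCF4, a gene with many alternative first exons, whereas its longest coding transcript in GENCODE 29 has 8.34 kb. For TCF3 the same lengths were 6.80 and 4.45 kb, and for ID1 they were 1.38 and 1.23 kb. Dividing by the longest coding transcript gave NC levels of 212.0 (reads scaled to that length and the library size) for ID1, 134.9 for ID3, 18.6 for TCF3, 14.0 for TCF12, 4.34 for ID2, 2.75 for TCF4 and 1.13 for ID4. The order was the same on both scales, but on this scale TCF4 and ID4 no longer overlapped in NC. Differences between the groups that were fitted to counts are within 1 gene and do not depend on this choice. The FPKM limit for testing does depend on it, as do the limma fits, which add a constant to FPKM.

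Among the E proteins TCF3 differed most between the groups. TCF3 (ENSG00000071564, GRCh38 chromosome 19, 1609291 to 1652615, minus strand) had 11.7, 12.2 and 12.5 FPKM in NC and 23.1, 23.8 and 23.3 in siPOLR1F. Each siPOLR1F library was above each NC library, and the spread within a group was small, with a coefficient of variation of 3.42% in NC and 1.53% in siPOLR1F. The underlying counts were 5013, 5036 and 5285 against 9747, 10185 and 9847. The fitted difference was 0.95 on the log2 scale (SE 0.05), a level 1.94 times that of NC.

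TCF12, the other widely expressed E protein, differed far less. TCF12 (ENSG00000140262, chromosome 15, 56918623 to 57291124, plus strand) had 8.41, 8.14 and 7.58 FPKM in NC and 9.001, 8.53 and 8.85 in siPOLR1F. The groups did not overlap, but the lowest siPOLR1F library was only just above the highest NC library, and the fitted log2 difference was 0.14 (SE 0.06). TCF4 (ENSG00000196628, chromosome 18, 55222185 to 55664787, minus strand) was lower in siPOLR1F, with 0.793, 0.662 and 0.645 FPKM in NC and 0.621, 0.609 and 0.502 in siPOLR1F. Its low FPKM still rested on 1026 to 1640 counts per library, and the fitted log2 difference was -0.27 (SE 0.12).

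Among the ID genes, ID1 was lower in siPOLR1F and ID3 overlapped between the groups. ID1 (ENSG00000125968, chromosome 20, 31605283 to 31606515, plus strand) had 185.0, 189.1 and 195.3 FPKM in NC and 150.3, 163.4 and 148.6 in siPOLR1F. No siPOLR1F library reached the lowest NC library, and the fitted log2 difference was -0.29 (SE 0.05), or a change of -18.4%. ID3 (ENSG00000117318, chromosome 1, 23557926 to 23559501, minus strand) had 90.4, 111.3 and 101.2 FPKM in NC and 96.7, 114.0 and 119.9 in siPOLR1F. The spread within each group, 10.5 and 12.1 FPKM (SD), was wider than the distance between the means, and the fitted log2 difference was 0.13 (SE 0.09).

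The scarcer ID genes pointed lower with wider errors. ID2 (ENSG00000115738, chromosome 2, 8678845 to 8684453, plus strand) had 3.95, 3.56 and 3.21 FPKM in NC and 2.95, 2.84 and 2.57 in siPOLR1F, a fitted log2 difference of -0.35 (SE 0.14). Its groups did not overlap. ID4 (ENSG00000172201, chromosome 6, 19837370 to 19842197, plus strand) had 0.730, 0.624 and 0.479 FPKM in NC and 0.461, 0.446 and 0.470 in siPOLR1F. NC replicate 3, the lowest of its group, was almost level with siPOLR1F, and the fitted log2 difference was -0.41 (SE 0.20) on 122 to 200 counts per library. ID2 overlaps the antisense gene ID2-AS1 over 318 bases and ID4 the antisense LNC-LBCS over 1711 bases. The counts of these neighbours reached at most 8.59% of those of ID2 and 12.3% of those of ID4, and without a stated strand setting reads in the overlap cannot be assigned to either gene.

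By the edgeR quasi-likelihood fit over all 13564 genes (Benjamini-Hochberg adjusted p below 0.05), TCF3 was called higher and ID1 lower, and the other 5 members were not called. That is 1 of 7 in each direction, where 10.3% of all genes tested were called higher and 6.94% lower, or 17.2% in all. FPKM did not overlap between the groups for 6 of the 7 members, all except ID3, and for 37.9% of all genes tested. Since the members were proposed with this contrast known, nothing is read from these counts. The median log2 difference was -0.27 over the 7 members and -0.01 over all genes tested. TCF3 ranked 68 by log2 difference among the 1391 genes called higher, whose median was 0.41. Both calls remained in each of the 15 alternative fits. In these the log2 difference lay between 0.89 and 0.98 for TCF3 and between -0.33 and -0.27 for ID1. The fits reuse the libraries in which the members were chosen, so they show dependence on processing and do not test the calls. The values of TCF4, TCF12, ID2, ID3 and ID4 depended more on single libraries. ID3 moved from 0.133 to 0.058 without NC replicate 1, 0.209 without NC replicate 2, 0.215 without siPOLR1F replicate 1 and 0.069 without siPOLR1F replicate 3. TCF4 moved from -0.268 to -0.168 without NC replicate 1 and -0.177 without siPOLR1F replicate 3, and ID4 from -0.405 to -0.257 without NC replicate 1. For these 2 genes the fit mattered more: limma on log2(FPKM + 1) gave -0.108 for TCF4 and -0.140 for ID4. Both are larger shifts than without any 1 library. ID2 was at -0.270 without NC replicate 1 and -0.423 without NC replicate 3, around -0.348 with all libraries. TCF12 was at 0.092 without NC replicate 3 and 0.168 without NC replicate 1, around 0.135 with all libraries.

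The sum of ID transcripts relative to the sum of E-protein transcripts was lower in siPOLR1F. Summed E-protein FPKM was 20.9, 21.0 and 20.7 in NC and 32.7, 32.9 and 32.6 in siPOLR1F. Summed ID FPKM was 280.1, 304.6 and 300.2 in NC and 250.4, 280.8 and 271.5 in siPOLR1F, which overlap by the second siPOLR1F library. The quotient was 14.1 ± 0.621 in NC and 8.17 ± 0.454 in siPOLR1F (SD, n = 3 each). Per longest coding transcript it was 9.97 ± 0.532 and 6.06 ± 0.367 (SD, n = 3 each), so the distance between the groups was present on both length scales. TCF3 made up 58.1% ± 2.18 of the E-protein sum in NC and 71.4% ± 0.830 in siPOLR1F (SD, n = 3 each). Within the ID genes, ID1 and ID3 together held 98.3% to 98.9% of the FPKM in each library. The FPKM of ID1 was 2.05, 1.70 and 1.93 times that of ID3 in NC and 1.55, 1.43 and 1.24 times in siPOLR1F. These quotients restate the members' own levels, are of transcripts and not of proteins, and were not tested.

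**Figure D2:**
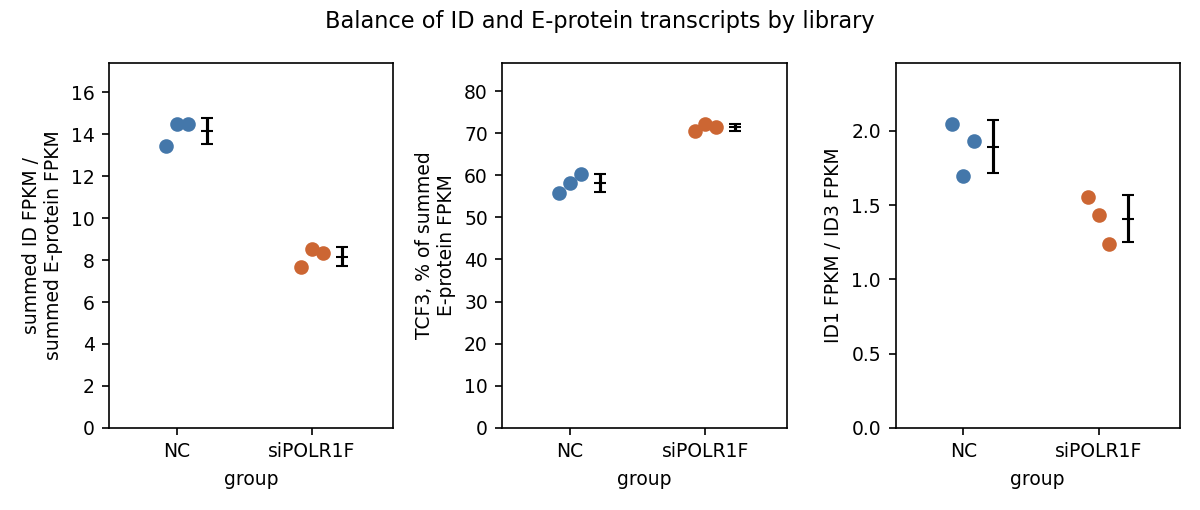
Summed ID FPKM over summed E-protein FPKM, TCF3 as a percentage of summed E-protein FPKM, and ID1 FPKM over ID3 FPKM in each library (points), with the group mean and SD (n = 3) beside them. The first quotient is 14.1 in NC and 8.17 in siPOLR1F on average, and the TCF3 share is 58.1% and 71.4%.

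The promoters of TCF3 and ID1, the 2 members called, are shown with those of ID2 and ID4, the only members with 1 annotated start whose window holds an E box. Sequences are the 250 bases before the start in RefSeq (GRCh38.p14), read 5′ to 3′ on the gene's strand, with E boxes in capitals. RefSeq windows were found for all 7 members, 1 each for TCF3 and the ID genes, 10 for TCF4 and 5 for TCF12.

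TCF3, chr19:1652616-1652865, minus strand: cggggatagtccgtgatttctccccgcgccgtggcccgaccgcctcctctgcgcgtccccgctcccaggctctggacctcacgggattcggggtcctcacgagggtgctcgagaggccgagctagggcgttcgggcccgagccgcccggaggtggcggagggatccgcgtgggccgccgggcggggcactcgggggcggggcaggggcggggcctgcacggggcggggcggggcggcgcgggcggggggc
ID1, chr20:31605039-31605288, plus strand: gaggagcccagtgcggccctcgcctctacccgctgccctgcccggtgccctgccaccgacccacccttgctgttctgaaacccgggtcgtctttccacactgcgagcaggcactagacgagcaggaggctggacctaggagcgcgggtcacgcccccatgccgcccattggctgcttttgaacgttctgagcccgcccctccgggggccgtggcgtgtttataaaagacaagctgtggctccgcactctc
ID2, chr2:8681806-8682055, plus strand: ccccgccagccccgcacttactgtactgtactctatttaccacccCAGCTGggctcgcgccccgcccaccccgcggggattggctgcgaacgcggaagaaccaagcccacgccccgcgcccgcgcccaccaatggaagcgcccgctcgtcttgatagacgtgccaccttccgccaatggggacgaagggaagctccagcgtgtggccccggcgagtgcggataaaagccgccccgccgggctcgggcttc
ID4, chr6:19837120-19837369, plus strand: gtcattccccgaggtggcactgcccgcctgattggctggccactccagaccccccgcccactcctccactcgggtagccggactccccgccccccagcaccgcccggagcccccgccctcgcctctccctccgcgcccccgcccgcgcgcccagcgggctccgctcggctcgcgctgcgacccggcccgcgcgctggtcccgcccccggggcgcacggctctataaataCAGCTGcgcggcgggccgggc

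ID2 held 1 E box, starting 205 bases before the start, and ID4 held 1, starting 21 bases before it. Both were CAGCTG. The windows of TCF3, ID1 and ID3 held no CANNTG. Of 35116 RefSeq windows of the same length, 61.8% held CANNTG and 14.0% held CAGCTG, on either strand. Each such specific form is counted within CANNTG as well. CANNTG was in 5 of the 10 TCF4 windows and 2 of the 5 TCF12 windows. Of the same windows, 1 for each of these genes held CACGTG, a form bound by MYC and its relatives, against 6.34% of all windows. The GC-rich motif GGCGCC, which SMAD factors can bind, occurred in 1 TCF12 window and in 16.4% of all windows, and neither the EGR1 motif GCGTGGGCG nor the cyclic AMP response element TGACGTCA occurred in any of the 20 members' windows. The ID2 window lies inside the deposited span of ID2, because RefSeq places the start further in. A match is a string of letters and not a bound site. The TCF3 window had a GC content of 79.6% and that of ID1 66.0%.

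An earlier scan of these same libraries had singled out the heptamers TCGGAGA and CCGACTT among genes that differed in siPOLR1F. TCGGAGA occurred in none of the 15 coding transcripts of TCF3 in GENCODE 29, nor in a coding transcript of another member, while 11.3% of the 11274 tested genes searched held it in their longest coding transcript. CCGACTT, held by 7.72% of those genes, occurred in ID4 alone. The site lies in the 3′ UTR at chr6:19839526-19839550 on the plus strand, and its 25 bases, with the heptamer in capitals, read agagtagatCCGACTTtagaagcct. The part of such sites in the members' differences was not tested.

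TCF3 had the highest fitted difference of the 46 bHLH genes tested. The deposited annotation assigns 79 genes to this family, and 46 of them were tested. This grouping was taken up after the values were seen. Besides the 7 members, 4 of 39 rose, 3 fell and 32 did not pass the edgeR test. That is a share of 17.9% called, close to the 17.2% of all genes tested. After TCF3 came TFAP4, an E-box factor of its own class and a known MYC target, with a log2 fold change of 0.82. Its mean in NC was 2.33 FPKM. MAX, the obligate partner of MYC, had 0.38, the glucose sensor MLXIP had 0.34 and the lysosomal regulator TFE3 had 0.30. The 3 that fell were HES4 (-0.50), the melanocyte and lysosome factor MITF (-0.28) and the aryl hydrocarbon receptor gene AHR (-0.25). The TFAP4 call held in each alternative (edgeR adjusted p = 3.61e-04; at most 0.00374), and TFE3 lost its call only with no filter (0.0522). The call ended for MAX without any library but NC replicate 2 or siPOLR1F replicate 1 (at most 0.0979 over the alternatives), for MLXIP without any siPOLR1F library (at most 0.115), for AHR without any library but the first of each group (at most 0.117), and for MITF without any 1 of the 6 libraries (at most 0.119). The calls of MAX, MLXIP, AHR and MITF also ended with no filter on low genes. With edgeR's own filter (filterByExpr) those of AHR and MITF ended, and in both limma fits those of MLXIP and MITF. ID1, ID2 and ID4 had ranks 41, 42 and 44 of 46 by log2 difference.

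**Figure D3:**
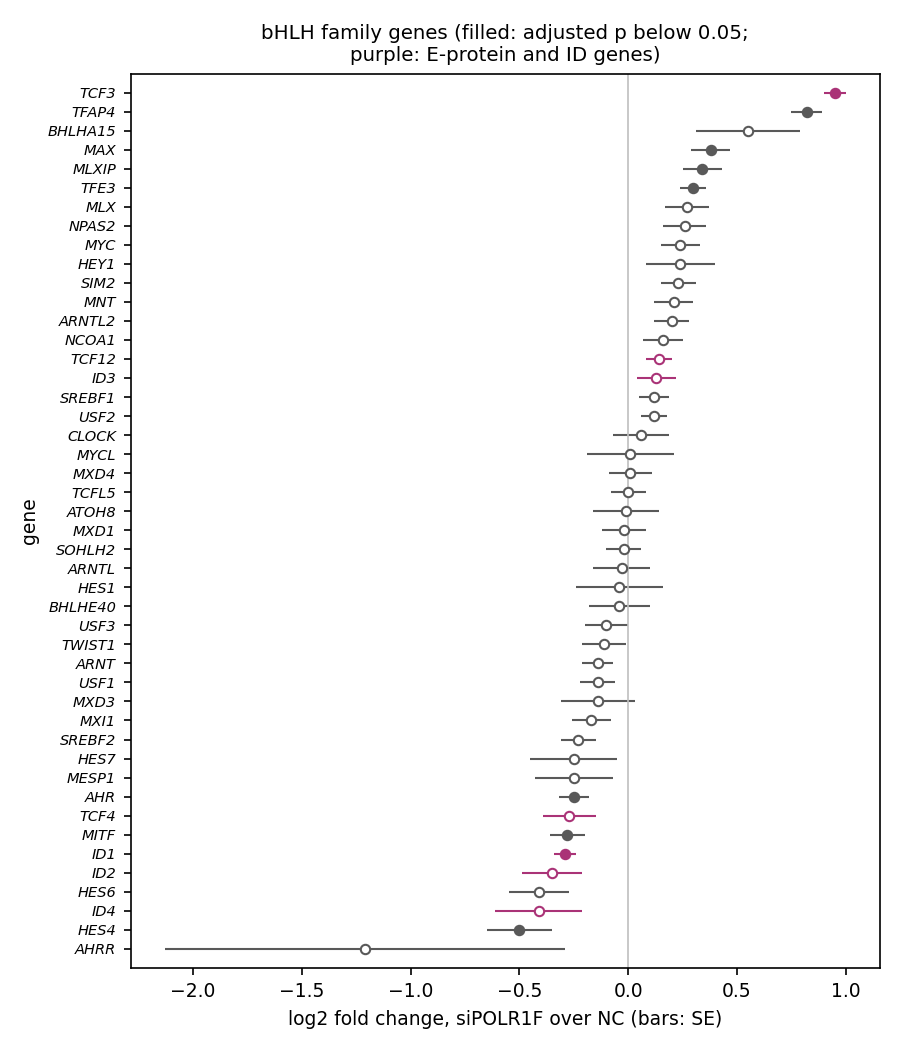
Log2 fold change of siPOLR1F over NC with its SE for the 46 bHLH genes tested, ordered by value. Filled points have an edgeR adjusted p below 0.05 and purple points are the members. TCF3 is at the top with 0.95, and AHRR at the bottom has a wide SE of 0.92.

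Few tissue-restricted partners of E proteins were measured. Of 24 partner bHLH genes in the table, 4 reached the FPKM limit, and none of these 4 passed the edgeR test (1 had an unadjusted p below 0.05, and DESeq2 and limma called 0). TWIST1, a mesenchymal factor that pairs with E proteins, had 5.45 ± 0.333 FPKM with NC and 5.03 ± 0.315 with siPOLR1F (SD, n = 3; log2 fold change -0.11, SE 0.10). MESP1, a mesoderm factor, was at 3.90 ± 0.714 and 3.26 ± 0.296 FPKM. Of 6 HES, HEY and BHLHE40/41 repressors tested, HES4, a target of Notch signalling, passed in edgeR and was lower, and the other 5 did not, a share of 16.7% against 17.2% of all genes. DESeq2 called 1 of the 6 and limma on log2(FPKM + 1) called 2. The second was HES6, named after its value was seen, at -0.41 on the log2 scale (SE 0.14) with an edgeR adjusted p of 0.0817 (0.0268 to 0.189 over the alternatives). HES4 went from 4.44 ± 0.389 to 3.10 ± 0.232 FPKM (SD, n = 3; edgeR adjusted p = 0.0499). Its call ended without any 1 of the 6 libraries, and its adjusted p ranged from 0.0136 to 0.143 over the alternatives. In edgeR it also ended with DESeq2 size factors (0.0506), the replicate block (0.0725), edgeR's own filter (0.0763) and no filter on low genes (0.119).

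Of the BMP and SMAD genes upstream of the ID genes, 5 of 24 tested passed in edgeR, 2 higher and 3 lower, a share of 20.8% against 17.2% of all genes. DESeq2 called 9 of the 24, 4 of them higher, limma on log2(FPKM + 1) called 3, and edgeR with no filter on low genes called 2 of 35 and 0 higher (5 higher at an unadjusted p below 0.05). The median log2 fold change of the 24 was -0.04. The ligand gene BMP2 had 0.535, 1.00 and 0.497 FPKM in NC and 3.26, 1.78 and 1.51 in siPOLR1F. It rose by 1.69 on the log2 scale (SE 0.36) with an edgeR adjusted p of 0.0152. Each siPOLR1F library was higher, with siPOLR1F replicate 1 well above the others. The call ended without NC replicate 3 (0.0547) and with no filter on low genes (0.0844), within 1.44e-06 to 0.0844 over the alternatives. The related ligand gene BMP4 was at 2.48 ± 0.758 and 1.58 ± 0.275 FPKM (SD, n = 3) and did not pass (edgeR adjusted p = 0.0885). It was named after its value was seen. NOG, which encodes the BMP antagonist noggin, fell from 16.3 ± 1.45 to 11.6 ± 0.666 FPKM (SD, n = 3), or by 0.49 on the log2 scale (SE 0.09), with an edgeR adjusted p of 0.0074.

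The receptors and SMAD factors that carry the BMP signal pointed in both directions. ACVR2B, a type II receptor, was higher by 0.57 on the log2 scale (SE 0.14, edgeR adjusted p = 0.0304). It was the only type I or II receptor gene that passed in the main edgeR fit. BMPR1A (0.23), ACVR1 (0.16), ACVR2A (-0.11), BMPR2 (-0.15) and ACVRL1 (-0.37), named here as the other receptors tested, did not. The edgeR adjusted p of BMPR1A was 0.0604 (0.0428 to 0.182 over the alternatives). SMAD4, the partner shared by all receptor-activated SMADs, went from 2.38 ± 0.0133 to 1.95 ± 0.0179 FPKM (SD, n = 3), -0.28 on the log2 scale (SE 0.06), with an edgeR adjusted p of 0.0143. SMAD5, a BMP-activated SMAD chosen after its value was seen, fell by 0.22 on the log2 scale (SE 0.06), with an edgeR adjusted p of 0.0316. SMAD1 (0.06), SMAD9 (-0.11) and the feedback inhibitors SMAD6 (-0.27) and SMAD7 (0.08), named here as the rest of the SMAD genes in the list, did not pass in edgeR without a replicate block (SMAD6 edgeR adjusted p = 0.195, 0.0466 to 0.479 over the alternatives). The ACVR2B call ended without NC replicate 3 or any siPOLR1F library (0.00115 to 0.131 over the alternatives). It also ended in both limma fits (0.0687 and 0.0767) and with no filter on low genes (0.131). The SMAD4 call ended without siPOLR1F replicate 2 or 3 (8.57e-04 to 0.0588) and in both limma fits (0.0571 and 0.0538). The SMAD5 call ended without any library except NC replicate 3 (0.00902 to 0.110). It also ended with edgeR's own filter (0.0805) and with no filter on low genes (0.0985).

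**Figure D4:**
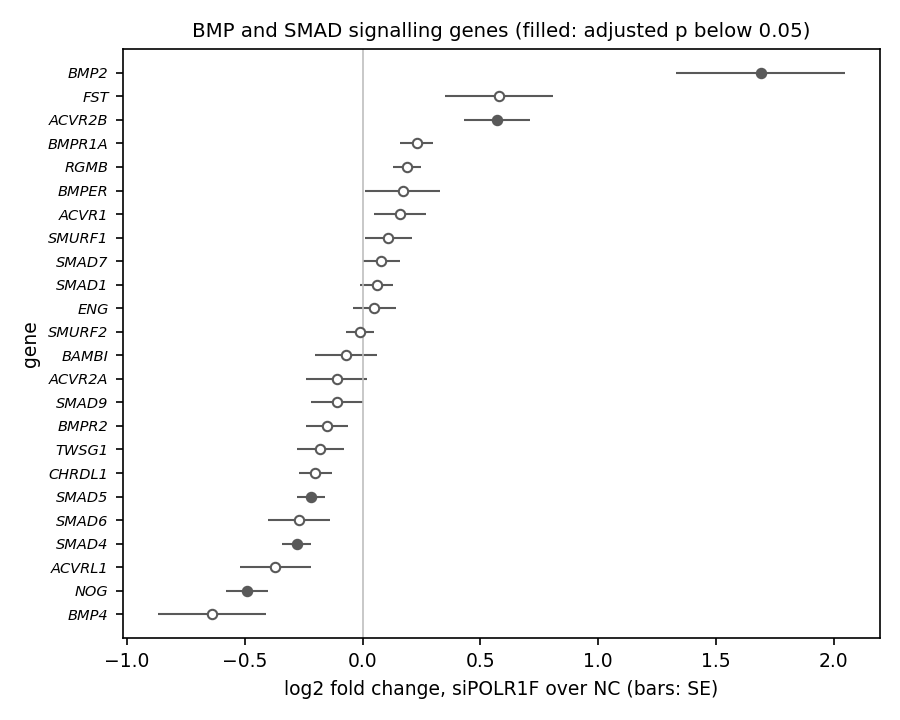
Log2 fold change of siPOLR1F over NC with its SE for the 24 BMP and SMAD genes tested, ordered by value. Filled points have an edgeR adjusted p below 0.05. BMP2 stands apart at 1.69, and NOG, SMAD4 and SMAD5 are the filled points below 0.

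Of 8 protein partners and stability factors of E and ID proteins tested, 1 rose, 1 fell and 6 did not pass in edgeR, or 2 of 8 against 17.2% of all genes. The count depended on the tool: DESeq2 called 4 of the 8, 3 of them higher, and limma on log2(FPKM + 1) called 1 and none higher. The count over all genes did so too. It was 1391 higher and 942 lower with edgeR, 1781 and 1345 with DESeq2, and 1194 and 883 with limma. CREBBP, a histone acetyltransferase that E proteins recruit, rose by 0.40 on the log2 scale (SE 0.11), with an edgeR adjusted p of 0.0392. Its call ended without NC replicate 1 or 3 or any siPOLR1F library (0.00168 to 0.165 over the alternatives). It also ended in both limma fits (0.0639 and 0.0659), with edgeR's own filter (0.0502) and with no filter on low genes (0.165). SKP2, a ubiquitin ligase subunit of the cell cycle, fell from 5.04 ± 0.286 to 3.92 ± 0.257 FPKM (SD, n = 3; log2 fold change -0.36, SE 0.07; edgeR adjusted p = 0.0101). Its call ended only with no filter on low genes (0.0598). USP1, which removes ubiquitin from ID proteins, was at 30.1 ± 3.98 and 29.6 ± 3.10 FPKM and was named after its value was seen. Of 4 tested genes under E-protein or ID control in other cells, 0 passed with edgeR, DESeq2 or limma, and 1 had an unadjusted p below 0.05. THBS1, an angiogenesis inhibitor that ID1 represses in other cells, was at 31.6 ± 5.29 and 30.9 ± 2.99 FPKM. CDKN2A, which encodes cyclin-dependent kinase inhibitor proteins, was at 17.3 ± 1.56 and 15.8 ± 1.15 FPKM (SD, n = 3 each).

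The genes with the profile closest to each member were found by Pearson correlation of log2 counts scaled to library size over the 6 libraries. For TCF3 the first 3 were SMPD4BP (r = 0.9998), the adaptor gene GRB10 (0.9996) and C2CD2 (0.9993), with log2 fold changes of 0.38, 0.65 and 0.92. For ID1 the first was the ubiquitin ligase gene RNF5 (r = 0.9954), for ID2 the noncoding DLEU2 (0.9950), for ID3 the checkpoint gene RAD1 (0.9905) and for ID4 SNORD17 (0.9926). For TCF4 it was MCTS1 (r = 0.9953) and for TCF12 the elongation factor gene CTR9 (0.9965). The 6 points share the group difference and the libraries, and the correlation does not reflect the size of a difference. These r values were picked as the highest over the tested genes outside the members. Their height is therefore no evidence of a link, and none was tested.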

How the data were processed

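Poly(A) RNA was measured in 3 NC and 3 siPOLR1F libraries of 8505C cells. The submitters' processing notes name fastp, HISAT2, StringTie and GRCh38 (hg38). No version, annotation or strand setting is given in the sources used here. The authors deposited whole-number counts and FPKM per gene, from which each library's 2 columns were taken by its label. Counts were used as deposited in edgeR 4.0.16 (TMM, glmQLFit and glmQLFTest, two-sided; R 4.3.3) where FPKM averaged 0.5 or more. These 13564 genes held 99.4% of counts, with a biological coefficient of variation of 0.137, adjusted by Benjamini-Hochberg at 0.05. The SE is the log2 fold change divided by the square root of F. Fits were tested on simulated data. No 2 libraries agreed within sampling noise. Members and lists were chosen with earlier results of these data known. Named genes are the members, POLR1F, and per list up to 4 genes past the test or, where none passed, the 2 most abundant. Alternatives were DESeq2 1.42.0, limma 3.58.1 on log2(FPKM + 1) or log2(FPKM + 0.1), other filters and scalings, a block for the replicate number, and the fit without each library in turn; library size alone was added after the data were seen. Depth of counting is high, so that replicates limit precision. Promoters came from RefSeq, transcripts from GENCODE 29. Protein sequences were not used here.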

Additional observations from a re-analysis of the deposited data

How the results depend on the processing

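The alternative fits reuse the libraries in which the members were chosen and do not test the calls. TCF3 higher and ID1 lower were the only member calls in each of the 15 alternative fits, and no member's log2 difference changed sign in a fit that included it (TCF4 and ID4 are not in the fit limited to a mean FPKM of at least 1). Over all genes, 1391 were called higher and 942 lower; these counts were 663 and 313 with no filter on low genes. Without 1 library they ranged from 730 to 1326 higher and from 423 to 841 lower. Without NC replicate 3 they were 877 and 539, and without siPOLR1F replicate 1, 2 or 3 they were 813 and 444, 898 and 517, and 730 and 423. In the related lists together, 3 genes were called higher and 5 lower. Over all genes DESeq2 called 1781 higher and 1345 lower. With a pseudocount of 1 limma called 1194 and 883, and with 0.1 it called 1184 and 885. In the lists DESeq2 called 7 higher, and limma with a pseudocount of 1 or 0.1 called 1 higher. With no filter edgeR called 0 list genes higher (9 at an unadjusted p below 0.05) and 2 lower. Without 1 library these ranged from 1 to 3 higher and from 2 to 4 lower: 1 higher without NC replicate 3 or any siPOLR1F library, 3 lower without NC replicate 2 or siPOLR1F replicate 1, and 2 lower without siPOLR1F replicate 2 or 3. THBS1 ranged from -0.123 (without NC replicate 1) to 0.115 without 1 library, and reversed to 0.115 without NC replicate 2 and to 0.048 without siPOLR1F replicate 1. With the replicate block 1517 genes were called higher and 1125 lower, and 5 list genes higher. Only under this block was SMAD6 called (lower, edgeR adjusted p = 0.0466). Deviations of same-numbered libraries correlated at 0.293, 0.016 and 0.274. The correlation was -0.275 between NC replicate 1 and siPOLR1F replicate 3, and -0.277 between NC replicate 3 and siPOLR1F replicate 1. Deviations from the mean of a group of 3 sum to 0 for each gene, so these correlations are not independent. The values 0.293, 0.274, -0.275 and -0.277 can all reflect 1 shared contrast, replicate 1 against replicate 3. They do not show which same-numbered pairs deviated together. The labels do not say whether the numbers pair the samples, and the main fit has no replicate block. The cause of these changes was not tested. ID4, at 122 to 200 counts, is the member most limited by depth.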

Other observations

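AHRR, a bHLH repressor of the aryl hydrocarbon receptor, was chosen after its values were seen. It had 636, 563 and 685 counts in NC and 43, 741 and 42 in siPOLR1F. The readthrough gene PDCD6-AHRR, which spans the same stretch of chromosome 5 on the same strand, had 0, 62 and 7 counts in NC and 1040, 193 and 866 in siPOLR1F. The siPOLR1F replicates 1 and 3, which were low for AHRR, were the highest for the readthrough gene. How reads were assigned between these overlapping genes was not tested.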
